A study of Mus musculus with 6 samples.

Results

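Cxcl12, Ackr3 and Cxcr4 encode the chemokine CXCL12 (stromal cell-derived factor), the receptor that removes it and the receptor through which it signals. The 3 genes were chosen by name, with earlier results of these data known. They were found by row name, 3 of 28327 genes in the 4 Drop-seq tables and 3 of 49492 in the 2 bulk tables. CXCL12 binds CXCR4, which couples to inhibitory G proteins and directs cell migration and survival. It also binds ACKR3 (CXCR7), an atypical receptor that recruits arrestins, does not signal through G proteins in the usual way and takes the chemokine up from the extracellular space. In the developing mouse kidney podocytes produce CXCL12, and loss of the ligand or of CXCR4 disturbs the formation of the glomerular capillaries.

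The series measured transcripts in glomeruli, the filtering capillary tufts of the kidney, of male CD1 IGS outbred mice aged 8 weeks. Drop-seq, a droplet method that counts each captured transcript of a cell once by a unique molecular identifier (UMI), was run on 4 libraries of dissociated glomerular cells fixed in 80% methanol. A bulk RNA-seq library was made from 95 ng of RNA of dissociated, fixed and sorted cells, and another from 500 ng of RNA of whole isolated glomeruli. No group carried a mutation or a treatment, and no label tells whether the 4 libraries are from different animals. A p-value here therefore reflects variation among these preparations alone, some of which may be technical.

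After barcodes with under 300 genes or over 20% mitochondrial UMIs were left out, 13993 of 15465 Drop-seq barcodes remained, with 3268240 to 5856221 UMIs and a median of 816 to 1156 UMIs per cell in a library. Cells were clustered without the 3 genes or the other listed axis and chemokine genes, and clusters were named from marker genes, giving 10515 podocyte-like, 1848 endothelial-like, 923 tubular-like, 331 parietal epithelial-like, 322 mural-like (mesangial, smooth muscle and renin) and 54 immune-like cells. Of the kept barcodes, 3 occurred in more than 1 library and 0 in all 4. The parietal epithelial name rested on 3 of 7 markers seen in at least 5% of the cells, Dkk3, Cldn1 and Pax8, while Prom1 had 0 UMIs there and Cd24a was lower (114 CPM) than in endothelial-like cells (1697 CPM). In these 331 cells the 9 podocyte markers, all of them detected, held 1.19% to 1.62% of a library's UMIs, against 2.05% to 2.42% in podocyte-like, 0.377% to 0.509% in endothelial-like, 0.259% to 0.479% in mural-like and 0.129% to 0.211% in tubular-like cells. Of the parietal epithelial-like cells 91.2% carried at least 2 UMIs from at least 2 marker genes of another type, most often of podocytes. Levels are given as CPM, the gene's UMIs per 1000000 UMIs of a cell type in a library.

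The 3 promoters are shown because Cxcl12 and Ackr3 followed each other across the cell types and Cxcr4 did not. Each runs from 250 bases before the gene's start to 50 bases after it, on the gene's strand, and was taken from RefSeq (GRCm38.p6), in which all 3 genes were found. Capitals mark matches on either strand to 3 motifs, the TATA box (TATAAA), the GC box (GGGCGG) and the core of the hypoxia response element (ACGTG or GCGTG). Cxcl12 lies at chr6:117168285-117168584 on the plus strand, Ackr3 at chr1:90203730-90204029 on the plus strand and Cxcr4 at chr1:128592250-128592549 on the minus strand.
Cxcl12: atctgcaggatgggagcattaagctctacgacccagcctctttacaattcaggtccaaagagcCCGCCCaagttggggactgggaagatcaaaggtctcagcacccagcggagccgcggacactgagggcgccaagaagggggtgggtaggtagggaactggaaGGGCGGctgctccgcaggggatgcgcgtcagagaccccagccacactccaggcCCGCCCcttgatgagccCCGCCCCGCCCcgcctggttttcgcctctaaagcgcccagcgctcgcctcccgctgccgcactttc
Ackr3: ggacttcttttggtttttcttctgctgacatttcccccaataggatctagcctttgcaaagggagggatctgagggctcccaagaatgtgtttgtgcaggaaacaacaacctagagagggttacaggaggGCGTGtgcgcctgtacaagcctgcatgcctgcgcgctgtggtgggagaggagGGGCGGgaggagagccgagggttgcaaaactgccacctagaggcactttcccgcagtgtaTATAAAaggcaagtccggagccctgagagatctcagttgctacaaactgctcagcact
Cxcr4: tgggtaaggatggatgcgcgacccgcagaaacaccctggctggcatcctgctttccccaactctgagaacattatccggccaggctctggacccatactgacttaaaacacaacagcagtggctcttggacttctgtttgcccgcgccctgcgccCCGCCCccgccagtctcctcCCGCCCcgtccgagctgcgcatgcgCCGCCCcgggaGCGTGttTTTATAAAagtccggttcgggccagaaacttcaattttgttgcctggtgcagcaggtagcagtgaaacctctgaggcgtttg

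The Cxcl12 window held 5 GC boxes and no TATAAA, and 64.7% of its bases were G or C, against a median of 52.7% over all 32851 promoters in the table. The Ackr3 window (54.0% G or C) held 1 TATAAA that began 8 bases before the start, 1 GC box and 1 GCGTG. The Cxcr4 window (59.3%) held TATAAA 30 bases before the start, overlapped by its reverse complement, 3 GC boxes and 1 GCGTG. The AP-1 motif TGANTCA was in none of the 3. Of all promoters of this length 13.6% held the TATA box motif, 35.7% the GC box, 43.8% a hypoxia response core and 7.81% the AP-1 motif, so a match to each of the first 3 motifs is common in the genome. The whole genes stand at chr6:117168535-117181367 (Cxcl12), chr1:90203980-90216751 (Ackr3) and chr1:128588199-128592293 (Cxcr4) in GENCODE M21 on GRCm38, and no other annotated gene overlaps them.

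Cxcl12, the ligand, was highest in parietal epithelial-like cells and next in podocyte-like cells, and podocyte-like cells, being the most numerous, held 694 of its 810 UMIs. In parietal epithelial-like cells it stood at 169.9, 59.1, 258.0 and 223.5 CPM in replicates 1 to 4. Podocyte-like cells had 48.4, 48.0, 67.6 and 58.3 CPM in the same order. Replicates 1, 3 and 4 of the parietal epithelial-like cells were above every podocyte-like library, while replicate 2 lay inside the podocyte-like range. Endothelial-like cells had 17.1, 23.2, 26.6 and 16.6 CPM, and tubular-like cells 11.4, 4.71, 3.04 and 5.55 CPM. Mural-like cells had 10.2, 49.4, 15.5 and 10.3 CPM, from 5 UMIs in all, and immune-like cells had 1 UMI. The podocyte-like libraries did not overlap the endothelial-like or the tubular-like ones. Single mural-like libraries held 1 or 2 UMIs and were too shallow to be placed, since 3 counts equal 30.7 to 74.1 CPM there.

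Set against the mean of the other 4 tested types, Cxcl12 was higher in parietal epithelial-like cells by 3.05 on the log2 scale (SE 0.302, adjusted p = 1.1e-21, edgeR's quasi-likelihood test with Benjamini-Hochberg adjustment over 12720 genes, 4 libraries). It was higher in podocyte-like cells by 1.28 (SE 0.211, adjusted p = 1.5e-08), and in tubular-like cells its log2 fold was -2.48 (SE 0.454, adjusted p = 2.7e-07). Of all genes tested 5.71% were called higher in parietal epithelial-like cells, 24.9% higher in podocyte-like cells and 16.9% lower in tubular-like cells. The values in endothelial-like cells (-0.54, adjusted p = 0.27) and mural-like cells (-1.31, adjusted p = 0.16) missed the threshold of 0.05. The tubular-like call was lost when cells with over 10% mitochondrial UMIs were left out (-0.59, adjusted p = 0.62). Against the sum of all other cells, most of them podocyte-like, the parietal epithelial-like value was 1.72, and without cells carrying markers of another type, a fit that holds no parietal epithelial-like sums, the podocyte-like value was 3.13 and the tubular-like value -4.09.

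In order of their mean level the types ran from parietal epithelial-like (178 ± 86.9 CPM, SD, n = 4 libraries) over podocyte-like (55.6 ± 9.32), mural-like (21.3 ± 18.9) and endothelial-like (20.9 ± 4.84) to tubular-like (6.17 ± 3.62). Parietal epithelial-like cells exceeded podocyte-like cells by 1.42 on the log2 scale (SE 0.247, adjusted p = 6.6e-07), in a comparison in which 2.7% of genes were called higher. Podocyte-like cells exceeded mural-like cells by 2.07 (SE 0.551, adjusted p = 0.0013; 14.3% of genes higher) and endothelial-like cells by 1.45 (SE 0.275, adjusted p = 7.7e-07; 23.1% of genes higher). Mural-like and endothelial-like cells could not be told apart beyond their spread (-0.62, SE 0.714, adjusted p = 0.65). This value ran against the order of their means, as did the pooled levels of 16.7 CPM in mural-like and 21.2 CPM in endothelial-like cells. Endothelial-like cells exceeded tubular-like cells by 1.56 (SE 0.507, adjusted p = 0.0059; 24.6% of genes higher), a call lost without replicate 2 (1.37, adjusted p = 0.061) or replicate 3 (1.28, adjusted p = 0.068) and at 3.14 without cells carrying markers of another type, where podocyte-like over endothelial-like cells was at 2.27.

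**Figure D1:**
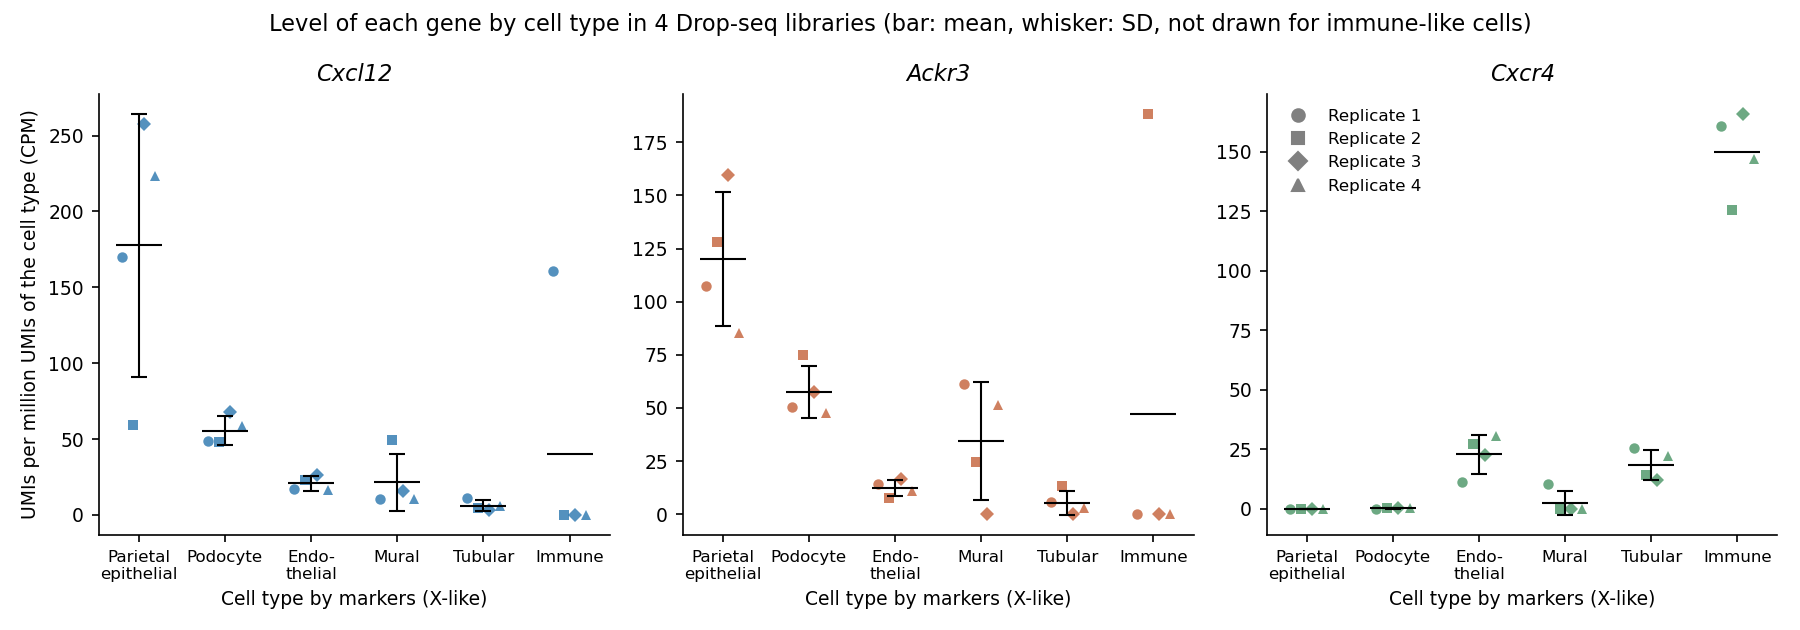
Level of Cxcl12, Ackr3 and Cxcr4 in CPM (the gene's UMIs per 1000000 UMIs) in each Drop-seq library, by cell type; points are the 4 libraries, horizontal bars their mean and whiskers 1 SD, which is not drawn for the 54 immune-like cells. By mean level Cxcl12 and Ackr3 are highest in parietal epithelial-like and then podocyte-like cells. Cxcr4 is near 0 in podocyte-like cells and has 0 UMIs in parietal epithelial-like cells, whose single libraries are too shallow to be placed. Its highest values, in the 54 immune-like cells, rest on 7 UMIs.

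The share of cells positive for Cxcl12 was likewise highest in parietal epithelial-like cells, next in podocyte-like cells and lowest in tubular-like cells. At least 1 UMI was found in 14.5% of parietal epithelial-like cells (48 of 331, median 986 UMIs per cell), 5.24% of podocyte-like cells (551 of 10515, median 1017), 1.57% of endothelial-like cells (median 640), 1.55% of mural-like cells (median 777) and 1.19% of tubular-like cells (median 1814). With cells thinned to 500 UMIs, which left out 20 parietal epithelial-like, 665 podocyte-like, 378 endothelial-like, 45 mural-like and 20 tubular-like cells that were shallower, the shares were 6.11%, 2.31%, 0.680%, 0.722% and 0.221% in the same order of types. None of the types is sure to lack the chemokine. The tubular-like share was the lowest although these profiles were the deepest, and the endothelial-like and mural-like shares stood above it by few cells. The part of stray UMIs in these low shares was not tested. The part of the endothelial-like and tubular-like signal that sat with podocyte markers was large. A subcluster of 199 endothelial-like cells with podocyte markers among its leading genes held 12 of 31 endothelial-like Cxcl12 UMIs, and one of 120 tubular-like cells held 9 of 12. Without these and a like subcluster of 32 mural-like cells, a choice made after seeing the data, Cxcl12 averaged 16.5 ± 5.85 CPM in endothelial-like and 2.56 ± 3.18 CPM in tubular-like cells (SD, n = 4).

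The parietal epithelial-like cells were also described by their share of podocyte-marker UMIs, a split chosen after seeing the data and not tested. In the 166 cells at or below the median share of podocyte-marker UMIs, Cxcl12 had 49 UMIs (256 CPM pooled, 95% interval 190 to 339; 25.4 to 399 CPM over the 4 libraries), and in the 165 cells above it 18 UMIs (91.1, interval 54.0 to 144; 41.5 to 157 CPM over the libraries). Ackr3 had 34 UMIs in the cells below (178, interval 123 to 248.5; 127 to 244 CPM over the libraries) and 12 in the cells above (60.7, interval 31.4 to 106; 0 to 129 CPM). The ranges over libraries overlapped for both genes. These exact Poisson intervals, like all intervals on single counts here, cover counting error only.

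Among podocyte-like cells, the largest class, Cxcl12 was found in 8 of 9 clusters. Across the 8 podocyte-like clusters of 481 to 2029 cells its pooled level ran between 41.8 CPM (cluster 0) and 67.3 CPM (cluster 5, 222 UMIs). The counting intervals of these clusters did not overlap, but their ranges over libraries did (28.9 to 58.3 CPM and 57.0 to 95.9 CPM). The smallest cluster (56 cells) had 0 UMIs. Ackr3 ran between 36.8 CPM (cluster 9) and 78.7 CPM (cluster 2) in the same 8 clusters, with 133 CPM from 5 UMIs in the smallest. These levels were not tested and are a description. The highest podocyte-like cluster for Cxcl12 stayed below the pooled parietal epithelial-like level of 172 CPM.

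**Figure D2:**
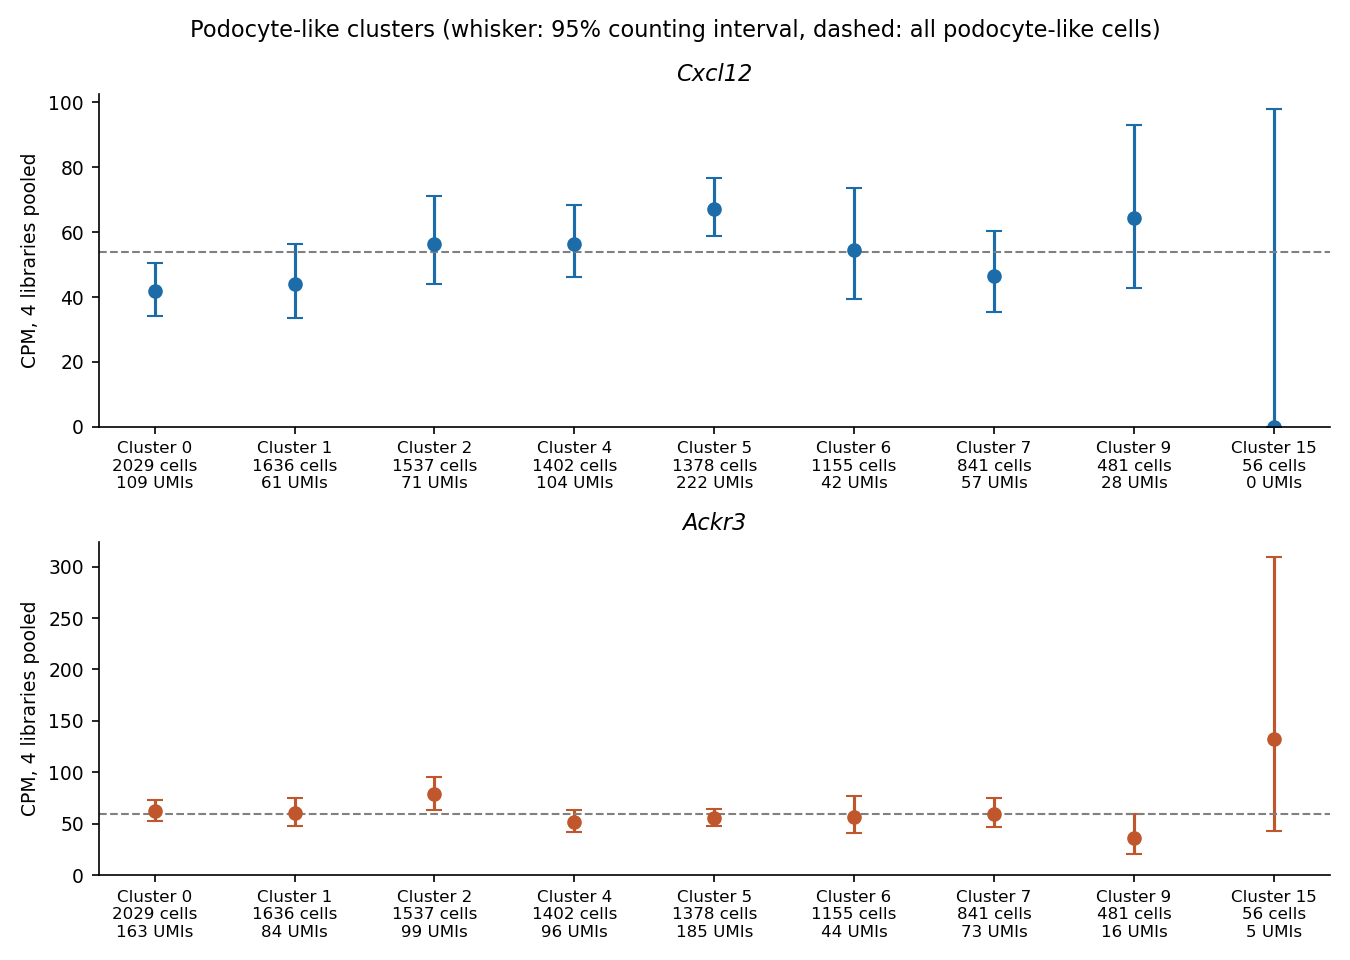
Pooled Cxcl12 and Ackr3 levels in CPM in each of the 9 podocyte-like clusters; points are the gene's UMIs per 1000000 UMIs over all 4 libraries and bars exact 95% Poisson intervals. Outside the smallest cluster (56 cells), Cxcl12 stays between 41.8 and 67.3 CPM and Ackr3 between 36.8 and 78.7 CPM.

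Ackr3, the scavenging receptor, was found in the same types as its ligand, with podocyte-like cells holding 765 of 862 UMIs. Parietal epithelial-like cells had 107, 128, 160 and 85.2 CPM in replicates 1 to 4 (46 UMIs), and podocyte-like cells 50.6, 74.9, 57.6 and 47.7 CPM. All 4 parietal epithelial-like libraries were above all 4 podocyte-like ones. Mural-like cells had 61.4, 24.7, 0 and 51.3 CPM (12 UMIs), endothelial-like cells 14.3, 7.73, 16.4 and 11.1 CPM, and tubular-like cells 5.68, 13.2, 0 and 2.78 CPM. Mural-like replicates 1 and 4 lay in the podocyte-like range. Mural-like replicates 2 and 3, with 1 and 0 UMIs, were too shallow to be placed, since 3 counts equal 74.1 and 46.5 CPM there. The endothelial-like libraries stayed below every podocyte-like library. The 3 UMIs of immune-like cells were all in replicate 2.

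Against the mean of the other types Ackr3 was higher in parietal epithelial-like cells by 2.25 on the log2 scale (SE 0.325, adjusted p = 2.5e-10, edgeR's quasi-likelihood test) and in podocyte-like cells (1.22, SE 0.191, adjusted p = 1.7e-09). It was lower in endothelial-like cells (-1.44, SE 0.366, adjusted p = 4.8e-04), where 11.5% of genes were called lower, and in tubular-like cells (-2.27, SE 0.37, adjusted p = 5.8e-09). Mural-like cells gave 0.23 (SE 0.478, adjusted p = 0.85). The endothelial-like call was lost without replicate 2 (-0.95, adjusted p = 0.11) and without cells carrying markers of another type (-0.86, adjusted p = 0.23). The latter fit holds no parietal epithelial-like sums, so its mean of the other types is not the same one. The tubular-like call was lost without cells over 10% mitochondrial UMIs (-1.26, adjusted p = 0.15). The parietal epithelial-like value was 1.14 against the sum of all other cells, the podocyte-like value 1.92 without cells carrying markers of another type, the endothelial-like value -2.29 with at least 500 genes per cell, and the tubular-like value -3.47 without replicate 2.

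By mean level Ackr3 ran from parietal epithelial-like (120.0 ± 31.7 CPM, SD, n = 4) over podocyte-like (57.7 ± 12.2), mural-like (34.4 ± 27.7) and endothelial-like (12.4 ± 3.78) to tubular-like cells (5.41 ± 5.68). The step between parietal epithelial-like and podocyte-like cells was 0.82 (SE 0.276, adjusted p = 0.048) and lay at the edge of the threshold. It missed the threshold without the replicate block (0.81, adjusted p = 0.13) and without any single replicate (0.71 to 0.96, adjusted p between 0.065 and 0.26). Podocyte-like and mural-like (0.80, SE 0.428, adjusted p = 0.18), mural-like and endothelial-like (1.33, SE 0.606, adjusted p = 0.12) and endothelial-like and tubular-like cells (0.67, SE 0.53, adjusted p = 0.31) were neighbours that could not be told apart beyond their spread. Further apart in the order, podocyte-like cells exceeded endothelial-like cells by 2.13 (SE 0.31, adjusted p = 5.7e-11) and mural-like cells exceeded tubular-like cells by 2.0 (SE 0.636, adjusted p = 0.0086; 9.94% of genes higher).

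Ackr3 was detected in 10.9% of parietal epithelial-like, 5.84% of podocyte-like, 3.11% of mural-like, 1.63% of tubular-like and 0.974% of endothelial-like cells. Cells were also thinned to 500 UMIs each, with the same shallower cells left out. The shares were then 3.54%, 2.88%, 1.08%, 0.332% and 0.748% in the same order of types. The endothelial-like share came from 11 of 1470 cells (interval 0.374% to 1.33%) and the tubular-like share from 3 of 903 (interval 0.0686% to 0.968%). These intervals overlapped, so the order of endothelial-like and tubular-like cells at equal depth could not be told.

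**Figure D3:**
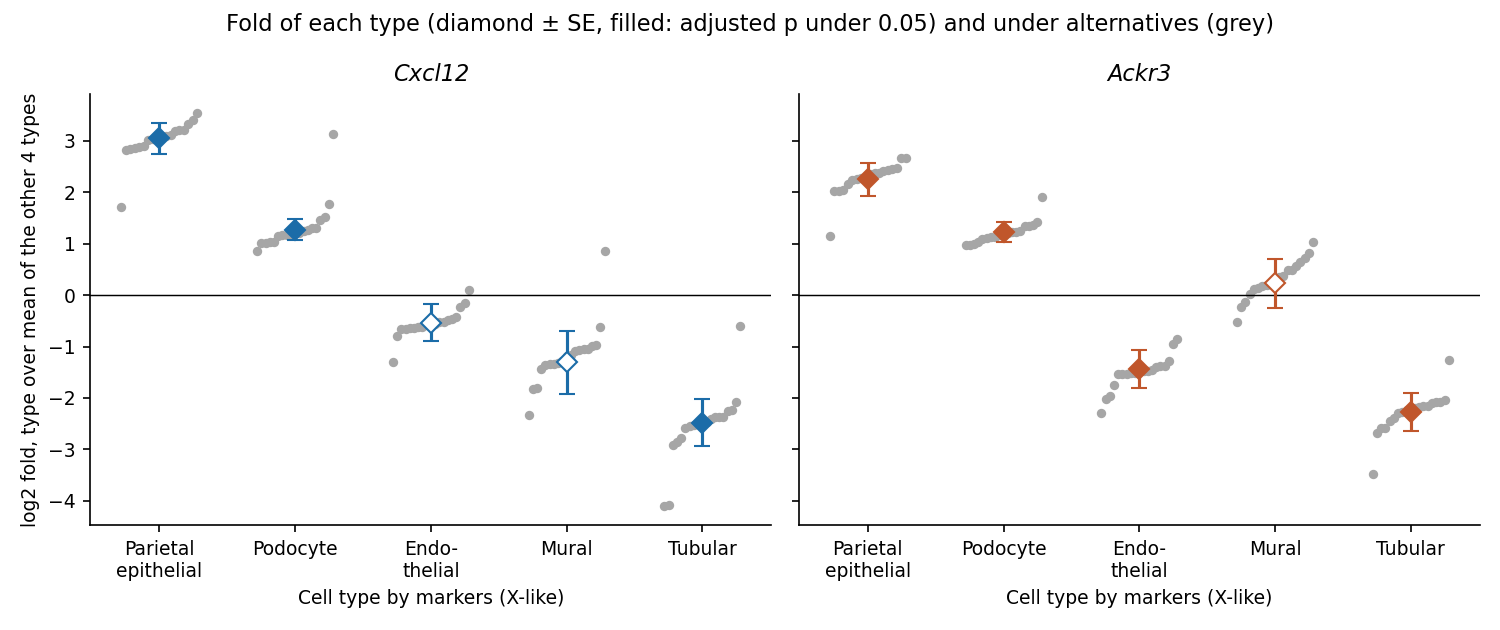
Log2 fold of Cxcl12 and Ackr3 in each cell type over the mean of the other 4 types; diamonds with 1 SE are the fit as reported (filled where the adjusted p was under 0.05) and grey points the values under the processing alternatives. The parietal epithelial-like and podocyte-like values stay above 0 throughout, whereas the mural-like values cross 0.

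Cxcr4, the signalling receptor, had a different distribution and was sparse, with 80 UMIs in all kept cells. Immune-like cells had the highest level, at 161, 126, 166 and 147 CPM in replicates 1 to 4, although this rests on 7 UMIs in 54 cells and was not tested. Endothelial-like cells had 11.4, 27.1, 22.5 and 30.5 CPM (33 UMIs) and tubular-like cells 25.6, 14.1, 12.2 and 22.2 CPM (36 UMIs). The ranges of these types overlapped. Single immune-like libraries held 1 or 2 UMIs and were too shallow to be placed, since 3 counts equal 188 to 483 CPM there. Podocyte-like cells had 3 UMIs in 10515 cells (0, 0.228, 0.436 and 0.341 CPM), mural-like cells 1 UMI in 322 cells, and parietal epithelial-like cells 0 UMIs in 331 cells, which allows up to 7.72 CPM at 3 counts. The endothelial-like and tubular-like libraries all lay above all podocyte-like ones. Single parietal epithelial-like libraries were too shallow to be placed, since their 0 UMIs allow up to 26.8 to 36.9 CPM each.

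Cxcr4 was higher in endothelial-like than in podocyte-like cells by 5.88 on the log2 scale (SE 0.605, adjusted p = 3.5e-21, edgeR's quasi-likelihood test), where 21.5% of genes were called higher. As a ratio of pooled UMIs that was 97.0-fold, with an interval of 30.4 to 494 from the 3 podocyte-like counts. Tubular-like cells exceeded podocyte-like cells by 5.70 (SE 0.593, adjusted p = 6.7e-21; 22.5% of genes higher), or 73.4-fold (23.2 to 373). Endothelial-like and tubular-like cells could not be told apart beyond their spread (0.18, SE 0.45, adjusted p = 0.78). Parietal epithelial-like cells, with 0 UMIs, were taken at 3 counts over the group. On that basis the pooled Cxcr4 level was 2.93-fold higher in endothelial-like, 2.22-fold higher in tubular-like and 19.0-fold higher in immune-like cells. These ratios leave out the counting error of the higher level and are not lower bounds. The immune-like level, from 7 UMIs, had an interval of 58.9 to 302 CPM. Immune-like cells held 6.47 times the pooled endothelial-like level (2.42 to 14.9).

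The mural-like comparison of Cxcr4 rested on 1 UMI. The pooled endothelial-like level was 22.6 CPM and the mural-like level 3.33 CPM (interval 0.0844 to 18.6), and the fitted log2 difference of 3.03 (SE 1.13, adjusted p = 0.043; 11.8% of genes higher) was lost without replicate 2, 3 or 4 (2.33 to 2.70, adjusted p between 0.14 and 0.27). Cells with a Cxcr4 UMI made up 12.96% of immune-like, 3.58% of tubular-like and 1.35% of endothelial-like cells, against 0.0285% of podocyte-like cells. Cells were also thinned to 500 UMIs each, with 8 immune-like cells also left out. The shares were then 8.70% in immune-like, 0.952% in endothelial-like and 0.775% in tubular-like cells. The endothelial-like share came from 14 of 1470 cells (interval 0.522% to 1.59%) and the tubular-like share from 7 of 903 (interval 0.312% to 1.59%). The higher tubular-like share was thus not seen at equal depth, where the overlapping intervals leave the order of these types untold. In the endothelial-like cells 8 of the 11 immune markers had 0 UMIs, and in the tubular-like cells 7 of 11.

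Within the endothelium the level of Cxcr4 was highest in 1 subcluster, which held 13 of the 33 endothelial-like UMIs. This subcluster of 138 cells was led by Mgp, Igf2, Fbln5, Jag1 and Vcam1, carried all 9 arterial markers and is called arterial endothelial-like. It had 54.1, 100.2, 154 and 132 CPM of Cxcr4 in replicates 1 to 4 (110.2 ± 43.5, SD), from 13 UMIs in 8 cells, whereas the other 4 tested subclusters had pooled levels between 7.16 and 22.01 CPM. Its log2 difference from the mean of the other subclusters was 2.55 (SE 0.672, adjusted p = 0.0058, edgeR over 10318 genes), and 1.88% of genes were called higher there. Of these UMIs the 3 in replicate 3 came from 1 cell. The call was lost without replicate 3 (2.47, adjusted p = 0.060) or replicate 4 (2.30, adjusted p = 0.17) and without cells carrying markers of another type (1.25, adjusted p = 0.53). The last of these fits also lacked the subcluster with podocyte markers, so its mean of the other subclusters is not the same one. Cxcl12 (61.2 ± 28.6 CPM, 6 UMIs, adjusted p = 0.31) and Ackr3 (40.2 ± 26.9 CPM, 5 UMIs, adjusted p = 0.29) missed the threshold in the same cells.

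Among the tubular-like cells the receptors were spread unevenly over the clusters, as a description from few UMIs. A cluster of 56 cells led by Atp6v1g3 and Car2, genes of acid-secreting intercalated cells, had 8 Cxcr4 UMIs (80.8 CPM pooled), of which 5 were in replicate 1. It had 0 Ackr3 UMIs, which allows up to 30.3 CPM at 3 counts. The cluster of 680 cells led by Pvalb, Umod and Slc12a3, genes of the thick ascending limb and distal tubule, had both receptors. It held 27 Cxcr4 UMIs (17.1 CPM pooled) and 7 Ackr3 UMIs (4.42 CPM pooled). The cluster of 187 cells with Aqp2, the water channel of collecting duct principal cells, and Hsd11b2 had 1 Cxcr4 UMI and 10 Ackr3 UMIs, 9 of them in replicate 2. Among mural-like cells the 130 cells of the largest subcluster held 7 of 12 Ackr3 UMIs and 2 of 5 Cxcl12 UMIs, the 101 cells led by Ren1 held 2 and 3, and the 59 mesangial-like cells held 0 of either and the 1 Cxcr4 UMI. None of the 3 genes reached the 10 UMIs needed for a test between mural-like subclusters.

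**Figure D4:**
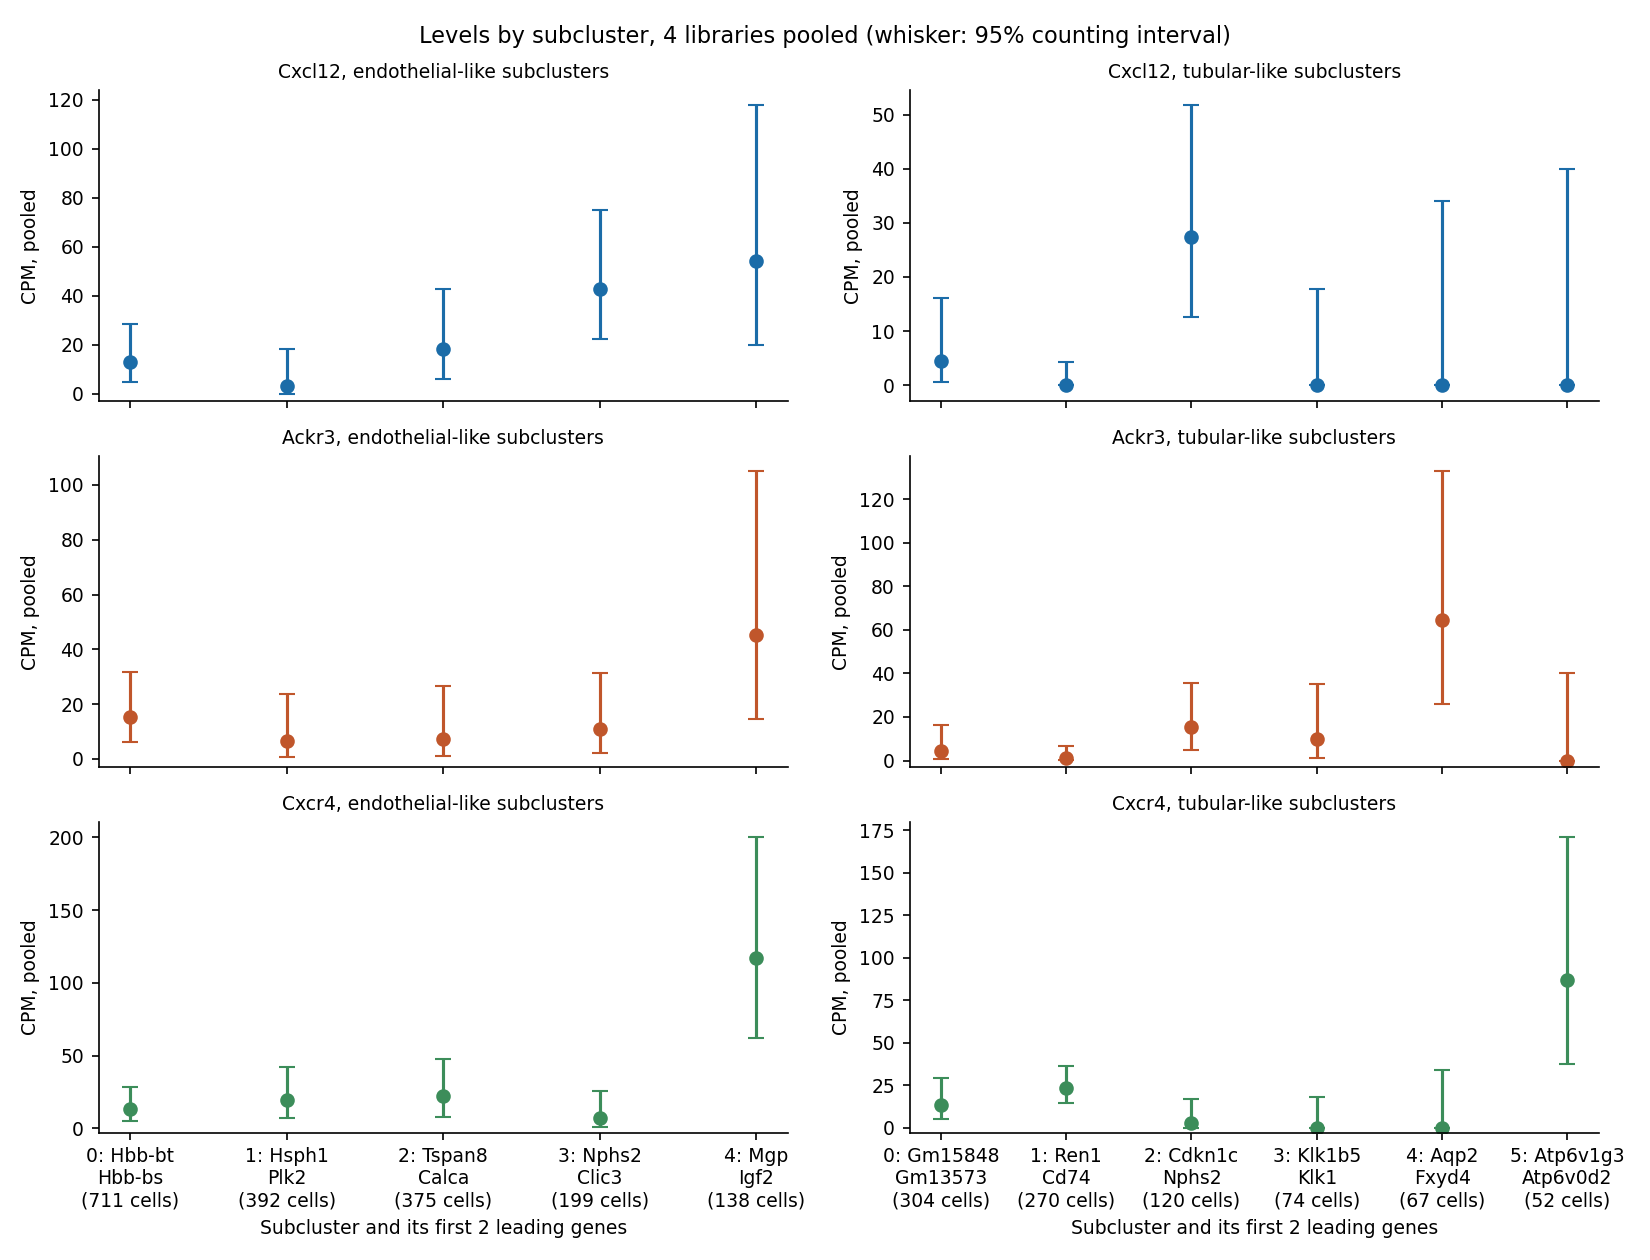
Pooled levels in CPM of Cxcl12, Ackr3 and Cxcr4 in the endothelial-like subclusters 0 to 4 and the tubular-like subclusters 0 to 5, with exact 95% Poisson intervals as bars. Cxcr4 stands highest in endothelial-like subcluster 4, the arterial one, at 117 CPM, and in tubular-like subcluster 5 at 86.8 CPM; Cxcl12 in endothelial-like subcluster 3 and tubular-like subcluster 2 accompanies podocyte markers.

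Across the 20 sums of library and cell type in the fit, log2(CPM + 10) of Cxcl12 and Ackr3 had a Pearson correlation of 0.78, against -0.63 for Cxcl12 with Cxcr4 and -0.67 for Ackr3 with Cxcr4. The sums of 1 library share its depth and preparation, and the value describes the pattern over types. Within types, 9 of the 48 parietal epithelial-like cells with a Cxcl12 UMI also had an Ackr3 UMI (18.8%), against 27 of the 283 without (9.54%), while the median depth was 1308 and 953 UMIs. In podocyte-like cells the shares were 6.72% (37 of 551) and 5.79% (577 of 9964), at medians of 1490 and 999.5 UMIs. Cells with the ligand were deeper in both types, and the part of depth in the shares was not tested. In endothelial-like cells 4 of the 29 cells with Cxcl12 also had Cxcr4 (13.8%), against 21 of 1819 without (1.15%), at 1188 and 637 UMIs.

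The genes most like Cxcl12 over the 20 sums were Plxdc2, Cldn1 (a tight junction protein and one of the parietal epithelial markers), Col4a5 (a collagen chain of the glomerular basement membrane), C1qtnf7 and Scaper, with correlations between 0.89 and 0.90. Those most like Ackr3 were Loxl2 (a lysyl oxidase-like enzyme acting on collagen), Tnfrsf12a (the receptor of TWEAK), Ptchd4, Samd5 and Plxdc2, between 0.90 and 0.93. Those most like Cxcr4 were Vav3, Upp1 (uridine phosphorylase), Itga6 (an integrin chain), Cish and Sh3tc1, between 0.92 and 0.93. Plxdc2 was on the lists of both Cxcl12 and Ackr3, at 313 CPM in parietal epithelial-like, 186 in podocyte-like and 13.4 in tubular-like cells. Itga6 had 96.9 CPM in endothelial-like and 134 CPM in tubular-like cells, against 1.61 CPM in podocyte-like cells.

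Set among its family by UMIs, in which a captured transcript counts once whatever its length, Cxcl12 had the highest mean level of the chemokines in parietal epithelial-like cells, with 37.9% of the 177 chemokine UMIs, and in podocyte-like cells, with 35.4% of 1963. In mural-like cells Cxcl1, a neutrophil attractant, stood above it, at 625 ± 163 CPM against 21.3 ± 18.9 CPM of Cxcl12 (SD, n = 4). Ackr3 made up 97.9% of the 47 chemokine receptor UMIs of parietal epithelial-like cells and 97.1% of the 788 of podocyte-like cells. Cxcr4 led the receptors in endothelial-like cells (37.9% of 87 UMIs) and tubular-like cells (62.1% of 58). Immune-like cells had 38 receptor UMIs in all, with Ccr2, the receptor of monocytes, at 258 ± 271 CPM and Cxcr4 at 150 ± 18.1 CPM. The order of these receptors could not be told from so few UMIs.

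The other ligands and processing enzymes of the axis together with Cd74, a list of 6 genes all of which were tested, moved in both directions in each type. In podocyte-like cells, where 24.9% of all genes were called higher and 10.4% lower, 2 of the 6 were higher and 2 lower, with a median log2 fold of -0.35 against 0.22 over all genes. The higher ones were Dpp4, a peptidase that cleaves CXCL12 (1343 ± 152 CPM, log2 fold 2.54, SE 0.0879, adjusted p = 2.9e-180), and Adm, adrenomedullin, which ACKR3 also binds (879 ± 144 CPM, 2.52, SE 0.0954, adjusted p = 3.2e-151). In parietal epithelial-like cells Adm (602 ± 95.9 CPM, log2 fold 1.57) and Dpp4 (861 ± 219 CPM, 1.45) were higher and Mif, a CXCR4 ligand, was lower (101 ± 48.3 CPM, -0.99, adjusted p = 6.0e-04), a count of 2 and 1 of 6, with 5.71% of all genes higher and 2.75% lower. Mif was highest in tubular-like cells (523 ± 57.4 CPM, log2 fold 2.39, adjusted p = 6.1e-99), where 2 of 6 were higher and 3 lower (23.1% and 16.9% of all genes), Dpp4 among these (102 ± 33.7 CPM, -1.87). Endothelial-like cells had 1 higher and 3 lower (21.6% and 11.5% of all genes), and mural-like cells 2 higher and 2 lower (6.61% and 7.24% of all genes). Mif and Hmgb1 have near-identical pseudogene copies, so their counts are uncertain.

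Of the 18 signalling genes of the axis 15 were tested. Endothelial-like cells, which hold Cxcr4, had 10 of the 15 higher and 0 lower at a median of 1.07, against 0.14 over all genes, of which 21.6% were called higher. Gnai2 and Gnai3, inhibitory G protein subunits, stood at 548 ± 70.8 CPM (log2 fold 1.62, SE 0.108, adjusted p = 1.65e-49) and 165 ± 10.96 CPM (1.39, SE 0.169, adjusted p = 2.1e-15), and Grk2, a kinase that turns off active receptors, at 29.3 ± 6.16 CPM (1.62, SE 0.403). In tubular-like cells, which also hold Cxcr4, 1 was higher and 6 were lower (23.1% and 16.9% of all genes), with Gnai1 at 77.1 ± 3.74 CPM (log2 fold 2.0, SE 0.229) and Gnai2 at 54.5 ± 11.5 CPM (-2.25, SE 0.155). In podocyte-like cells 3 were higher and 3 lower (24.9% and 10.4% of all genes): Grk5 (52.3 ± 4.53 CPM, 1.75) and Arrb1, the arrestin beta-arrestin-1 (27.8 ± 8.63 CPM, 1.11), were higher and Gnai1 lower (4.96 ± 2.26 CPM, -3.11). Parietal epithelial-like cells had 0 higher and 1 lower (5.71% and 2.75% of all genes), the focal adhesion kinase gene Ptk2 (4.47 ± 8.94 CPM, -2.59, adjusted p = 0.020). Mural-like cells had 1 higher, Gnai2 (357 ± 115 CPM, 0.53, adjusted p = 0.024), and 0 lower (6.61% and 7.24% of all genes).

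Of 33 other chemokines 7 had enough UMIs for the test, a filter that a gene high in 1 type can pass through that type alone. Endothelial-like cells had 4 higher, Cxcl2 (43.3 ± 27.0 CPM, log2 fold 3.75) and Cx3cl1 (37.2 ± 12.3 CPM, 2.24) among them, and 2 lower (21.6% and 11.5% of all genes). Podocyte-like cells had 0 higher and 3 lower (24.9% and 10.4% of all genes), Cxcl1 among the lower ones (30.3 ± 12.9 CPM, -1.63). Cxcl10, induced by interferon, was higher in parietal epithelial-like cells (117 ± 20.3 CPM, 2.22, SE 0.345, adjusted p = 6.5e-09), the 1 of 7 that passed there, where 5.71% of all genes were higher and 2.75% lower. Mural-like cells had 2 higher and 1 lower (6.61% and 7.24% of all genes), and tubular-like cells 5 higher and 1 lower (23.1% and 16.9% of all genes). Of the 20 other chemokine receptors none reached the 50 UMIs needed for a test, and none is compared between types.

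The bulk libraries set dissociated cells beside whole glomeruli, with 1 library each and so no replicate check and no p-value. In bulk RNA fewer cells of a type and less RNA per cell cannot be told apart, and dissociation, sorting, fixation and RNA input changed together. Ackr3 had 3381 reads in dissociated cells and 1995 in whole glomeruli, a scaled ratio of 2.44 (95% counting interval 2.31 to 2.58), past the 2-fold mark that 10.8% of 12692 genes exceeded upwards and 18.9% downwards. Cxcl12 had 1984 reads in dissociated cells and 2056 in whole glomeruli (1.39, interval 1.31 to 1.48). Cxcr4 had 337 reads in dissociated cells and 296 in whole glomeruli (1.64, interval 1.40 to 1.92). Only Ackr3 of the 3 was past 2-fold, and its ratio was above that of 93.7% of the genes, with 72.2% for Cxcl12 and 81.2% for Cxcr4. Scaled by library totals alone the log2 ratios were 0.97 for Ackr3, 0.16 for Cxcl12 and 0.39 for Cxcr4, in place of 1.29, 0.47 and 0.71, while the median over all genes lay at -0.32 in place of -0.0045, so Ackr3 fell just short of 2-fold.

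The cell type markers moved as well. Against whole glomeruli the dissociated cells had a median log2 ratio of 1.10 over 9 podocyte markers, -1.71 over 10 endothelial markers and -1.55 over 11 mural markers. It was 0.04 over 7 parietal epithelial markers and 1.43 over the 6 immune markers counted. Over 12 tubular markers it was -0.24, with single markers from -7.64 (Slc34a1) to 1.09 (Pvalb). Summed, podocyte markers held 40268 CPM in dissociated cells and 25987 CPM in whole glomeruli. Endothelial markers held 1764 CPM in dissociated cells and 7059 CPM in whole glomeruli, and tubular markers 1285 and 2500 CPM in the same order. The part of this in the ratios of the 3 genes was not tested. Per kilobase of exon, Ackr3 had 41.1 CPM in dissociated cells and 21.0 CPM in whole glomeruli, and was the highest of 22 chemokine receptors in both. Cxcl12 had 9.88 CPM per kilobase in dissociated cells and 8.85 in whole glomeruli, and Cxcr4 7.59 in dissociated cells and 5.76 in whole glomeruli.

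Of the same list of 6 genes (other ligands, processing enzymes and Cd74), 3 were more than 2-fold higher in dissociated cells, Adm (log2 ratio 3.09), Dpp4 (1.5) and Cd74 (1.48). Mmp2 (-3.13), a protease that cleaves CXCL12, was the 1 that was lower. Over all genes 10.8% were more than 2-fold higher and 18.9% more than 2-fold lower. Of 17 signalling genes counted 1 was higher, Stat3 (1.23), and 5 were lower, at a median log2 ratio of -0.34. Of 10 other chemokines 3 were higher, Cxcl10 (4.48), Ccl5 (1.99) and Ccl27a (1.47), and 4 lower, and of 5 other receptors 1 was higher, Ccr7, and 3 lower.

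**Figure D5:**
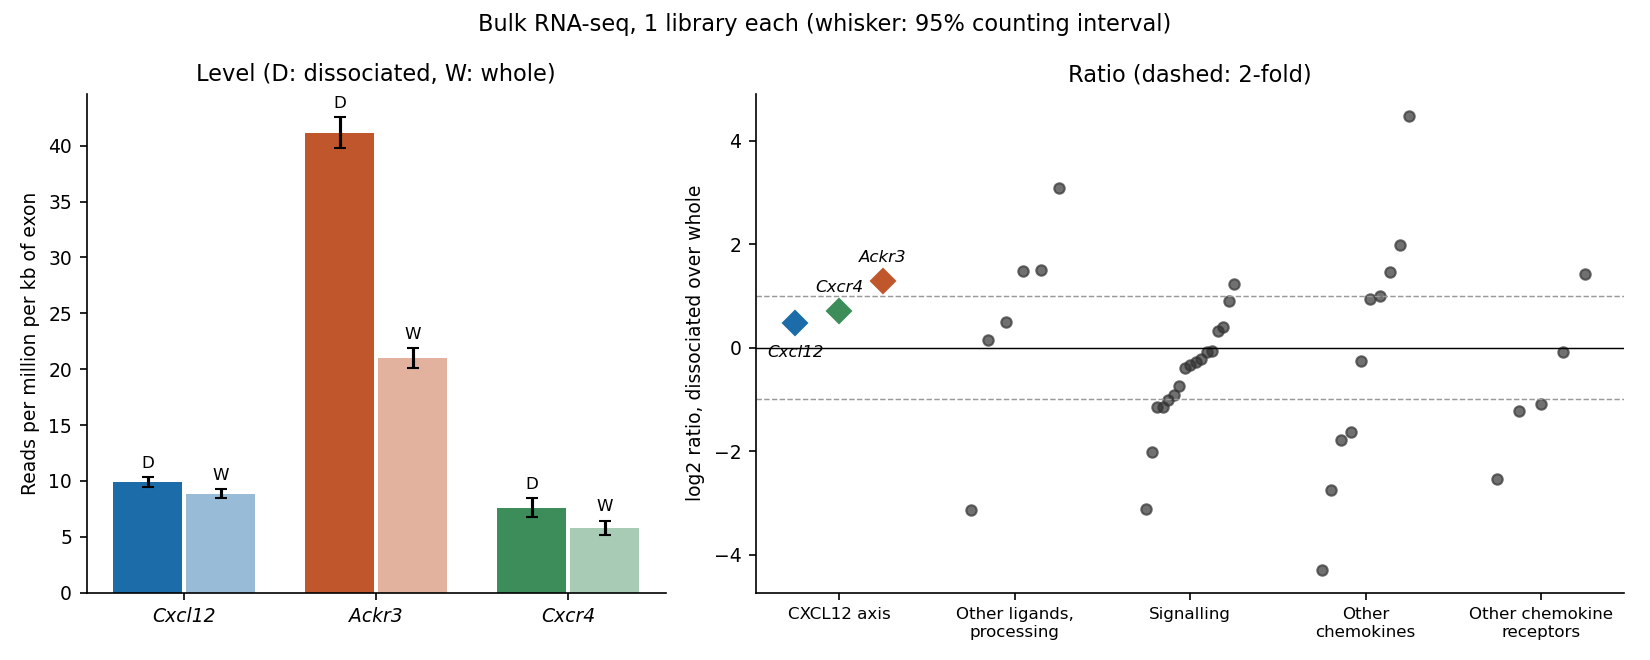
Bulk libraries of dissociated cells and whole glomeruli, 1 each: the left panel gives the level of the 3 genes in CPM per kilobase of exon, and the right panel the log2 ratio of dissociated cells over whole glomeruli for the genes of each list. Ackr3 is at 41.1 in dissociated cells and 21.0 in whole glomeruli, and the ratios of all 3 genes lie above 0.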

How the data were processed

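The Drop-seq tables hold deposited counts (UMIs of each gene in each barcode), and the bulk tables hold the authors' read counts per gene. STAR and HTSeq were used per the submitters' processing notes. The build, the annotation and the strand setting are not given in the sources used here. Bulk libraries assigned 24555632 reads (dissociated) and 28407317 (whole) to genes. HTSeq's lines for reads in no gene (6.14% and 9.68%), in several genes (3.87% and 3.77%) or at several positions (14.7% and 9.47%) were left out.

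Cells were clustered with scanpy 1.11.5 (2000 variable genes, 30 components, 15 neighbours, Leiden resolution 1.0), giving 17 clusters, which were named by their marker scores and leading genes under a rule set after the clusters were seen. The largest endothelial-like cluster scored higher on haemoglobin genes, and the cluster of 56 tubular-like cells on parietal epithelial markers, and each was named by its leading genes. Cell type names were rebuilt here and may differ from the study's. No doublet caller was run. Instead, cells with at least 2 UMIs from at least 2 markers of another type were left out as an alternative. Chi-square tests found no library deposited 2 times (at least 4.37 per degree of freedom).

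UMIs were summed per library and type and tested with edgeR 4.0.16 (R 4.3.3; TMM, quasi-likelihood test, Benjamini-Hochberg over 12720 genes with at least 50 UMIs), with the library as a block, because the types of a replicate come from 1 library. Deviations from the type means correlated by 0.13 to 0.36 between podocyte-like and each of parietal epithelial-like, endothelial-like and tubular-like sums of the same library, and least for parietal epithelial-like with mural-like sums (-0.01 at the lowest). Bulk values are TMM-scaled CPM with 2 added as prior count, over genes that reached 100 reads. DESeq2 1.42.0 was an alternative. The fit was tested on simulated data. Genes were named by rule: the 3 members, per list and type up to 3 called genes of the largest fold with 1 direction in every library, and the 5 genes most correlated with each member. Bulk list genes past 2-fold were named after their values were seen. The members and lists were chosen with earlier results of these data known.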

Additional observations from a re-analysis of the deposited data

Results flagged for a closer look

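In mural-like cells, replicate 2 had 49.4 CPM of Cxcl12, from 2 UMIs, and was flagged because it stood apart from the other 3 libraries at 10.2 to 15.5 CPM. Replicate 1 of the mural-like cells stood apart for Cxcr4, at 10.2 CPM from 1 UMI, where the other libraries had 0. In immune-like cells the single Cxcl12 UMI put replicate 1 at 161 CPM, and 3 Ackr3 UMIs put replicate 2 at 188 CPM, with 0 in the other 3 libraries each time. These 4 came from 17 groups of 4 libraries examined, and each rests on at most 3 UMIs. A group whose UMIs all fall in 1 library is always flagged by this rule. The chance rate of about 1 in 20 therefore does not hold for counts this low.

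Cxcr4 was also found in barcodes that no comparison used. The 584 barcodes with over 20% mitochondrial UMIs held 22 Cxcr4 UMIs, 20.9 CPM (interval 13.1 to 31.6), above the 2.85 CPM that a count of 0 allows. Replicates 1 to 4 had 73.2, 2.01, 25.5 and 23.7 CPM, with 11 of the 22 UMIs in replicate 1 and 1 in replicate 2, which held 277 of the barcodes. Without replicate 1, left out after seeing the data, the level was 12.2 CPM (interval 6.08 to 21.8). Without the mitochondrial limit 561 of them were named tubular-like, and the tubular-like cells that were kept had 17.1 CPM pooled.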

How the results depend on the processing

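Cxcl12 and Ackr3 kept their direction and their call in parietal epithelial-like and podocyte-like cells under every alternative run (normalization, DESeq2, no filter on low counts, other cell filters and cluster resolutions, each library left out), except that parietal epithelial-like cells had too few cells for a value without cells carrying markers of another type. That alternative gave 0.10 for Cxcl12 in endothelial-like and 0.86 in mural-like cells (both reversed), 0.57 for mural-like over endothelial-like cells (reversed), -0.86 for Ackr3 in endothelial-like cells and 1.25 for Cxcr4 in arterial endothelial-like cells. Its mean of the other types lacks the parietal epithelial-like sums, so the values of single types are not the same comparison as in the main fit. With at most 10% mitochondrial UMIs, Cxcl12 was at -0.59 and Ackr3 at -1.26 in tubular-like cells (calls lost), and Cxcl12 at -2.33 in mural-like cells (call gained). Against the sum of all other cells, Cxcl12 was at -1.30 in endothelial-like and -1.82 in mural-like cells (calls gained) and Ackr3 at -0.52 in mural-like cells (reversed).

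With no replicate block, that is without the pairing by library, Ackr3 in parietal epithelial-like over podocyte-like cells was at 0.81 (call lost) and Cxcr4 in tubular-like over mural-like cells at 2.82 (call gained); no other call on the 3 genes changed. Without the podocyte-marker subclusters, added after seeing the data, these were at 0.83 (adjusted p = 0.05001) and 2.89 (0.047). Leaving out 1 replicate at a time gave log2 values of -1.74 to -0.95 (Ackr3, endothelial-like), -0.23 to 0.73 (Ackr3, mural-like, reversed without replicate 1 or 4), 1.28 to 1.93 (Cxcl12, endothelial-like over tubular-like), 0.71 to 0.96 (Ackr3, parietal epithelial-like over podocyte-like), 0.93 to 1.90 (Ackr3, mural-like over endothelial-like, gained without replicate 3), 0.24 to 2.02 (Ackr3, endothelial-like over tubular-like, gained without replicate 2), -0.10 to 0.58 (Cxcr4, endothelial-like over tubular-like, reversed without replicate 2), 2.33 to 7.58 (Cxcr4, endothelial-like over mural-like) and 2.30 to 2.84 (Cxcr4, arterial). In bulk, library totals alone moved the ratios to 0.16, 0.97 and 0.39 for Cxcl12, Ackr3 and Cxcr4.

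With DESeq2's size factors podocyte-like cells had 1908 genes higher and 2098 lower, in place of 3163 and 1319, as the median over all genes moved to -0.03, in place of 0.22; mural-like cells had 1055 and 470, in place of 841 and 921. With library totals alone the split was 974 and 260 in parietal epithelial-like cells, in place of 726 and 350, 2512 and 1641 in podocyte-like, 1141 and 346 in mural-like, and 2286 and 3252 in tubular-like cells, in place of 2941 and 2148. Counts of other axis and chemokine genes ran from 1 to 4 higher and 0 to 4 lower in parietal epithelial-like, 4 to 6 and 5 to 13 in podocyte-like, 10 to 17 and 2 to 9 in endothelial-like, 2 to 7 and 2 to 4 in mural-like and 2 to 11 and 6 to 13 in tubular-like cells, in place of 3 and 2, 5 and 8, 15 and 5, 5 and 3, and 8 and 10. The cause of these changes was not tested. Depth limits Cxcr4 most, with 80 UMIs in all, and the mural-like and immune-like levels.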

Other observations

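The 888 barcodes with fewer than 300 genes held 8 Cxcl12 UMIs (23.6 CPM, interval 10.2 to 46.5), 5 Ackr3 UMIs (14.8 CPM, interval 4.79 to 34.4) and 7 Cxcr4 UMIs (20.7 CPM, interval 8.31 to 42.6). In the kept cells the pooled levels were 47.2 CPM for Cxcl12, 50.2 CPM for Ackr3 and 4.66 CPM for Cxcr4. The intervals of the 3 genes overlapped in the barcodes with few genes, so no order of the 3 can be read there.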
